A study of Mus musculus with 2 samples.

Results

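The miR-34 and miR-449 family was examined in 2 small-RNA libraries from embryonic mouse heart. Its members were the 6 genes Mir34a, Mir34b, Mir34c, Mir449a, Mir449b and Mir449c, found by Ensembl identifier among 1973 listed miRNA genes, and all 6 were listed. Hearts came from B6NCrl embryos of embryonic day 16.5, male and female together. The 2 libraries form 1 group of biological replicates. The labels give a pool of 41 embryos for replicate 2 and no number for replicate 1. Replicate 1 is called a pool here because its label reads mixed sex. No treatment, mutation or second stage was part of the design, so the questions addressed were how much of each family member the heart libraries held and how far the pools differed. Sense counts at miRNA genes came to 6473482 in replicate 1 and 5841568 in replicate 2, and levels are given as CPM (counts per 1000000 of these). One count was thus worth 0.154 CPM and 0.171 CPM.

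The miR-34 and miR-449 genes form 1 family because their 5p strands carry the same seed, the bases near the 5′ end that pair with target messenger RNAs. Mir34a, Mir34b and Mir34c are known as transcriptional targets of p53 that restrain the cell cycle. In mouse, Mir34a is also known for its rise in the ageing and injured heart. The miR-449 genes and Mir34b and Mir34c are known for high expression in multiciliated epithelia, where they act in the formation of motile cilia, and in the testis.

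The RefSeq table used here (GRCm38.p6, the assembly behind mm10) gave 9 mature sequences from 5 members. It held no sequence of Mir449b or of the 5p strand of Mir34c, so their seeds were not read here. The 5p strands are printed 5′ to 3′ to show what the family shares, with the seed (bases 2 to 8) in capitals.
miR-34a-5p: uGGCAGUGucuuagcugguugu
miR-34b-5p: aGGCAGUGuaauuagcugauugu
miR-449a-5p: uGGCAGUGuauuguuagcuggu
miR-449c-5p: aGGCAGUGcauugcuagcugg
All 4 had the seed GGCAGUG, and no other mature miRNA among the 1738 in the table had it. Counting from 1 at the 5′ end, over the first 21 bases miR-449c-5p differed from miR-449a-5p by the substitutions U1A, U9C and U14C. The miR-34a-5p and miR-449a-5p strands were 6 edits apart (substitutions, insertions or deletions), and miR-34a-5p and miR-34b-5p were 4 apart.

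The 3p strands are shown in the same way, because counts per gene sum both strands of a hairpin.
miR-34a-3p: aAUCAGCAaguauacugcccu
miR-34b-3p: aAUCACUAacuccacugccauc
miR-34c-3p: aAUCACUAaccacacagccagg
miR-449a-3p: cAGCUAACaugcgacugcucuc
miR-449c-3p: cAGUUGCUagcugcacuacccu
Of these 5, only miR-34b-3p and miR-34c-3p shared a seed with each other, and none of the 5 shared its seed with a miRNA outside the family in the table. From miR-34b-3p to miR-34c-3p the substitutions were U11C, C12A, U16A, U21G and C22G. The share of reads from each strand was not analysed here, since the deposited values are per gene.

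The 6 genes lie at 3 loci of mm10. Mir34a (ENSMUSG00000065493.1) lies on chromosome 4 from 150068454 to 150068555, plus strand. No annotated gene of that strand spans it, and its last 17 bases overlap Gm37795, which the annotation gives no type beyond TEC. The nearest other listed miRNA gene, Mir7023, is 412886 bases away. Mir34b (ENSMUSG00000065492.1; chromosome 9, 51103562 to 51103645) and Mir34c (ENSMUSG00000065587.1; chromosome 9, 51103034 to 51103110) are on the minus strand and 451 bases apart. Both lie within Btg4, a gene of the opposite strand, outside its exons, and the nearest listed gene outside the family, Gm27686, is at least 1000043 bases away. Mir449c (ENSMUSG00000076146.1; chromosome 13, 113035983 to 113036091), Mir449b (ENSMUSG00000078027.1; 113037419 to 113037498) and Mir449a (ENSMUSG00000065575.1; 113037534 to 113037624) are on the plus strand in intron 2 of Cdc20b. Mir449b and Mir449a are 35 bases apart, and 1327 bases separate Mir449c from Mir449b. Upstream of Cdc20b on the same strand are Mcidas and Ccno, which are known for their roles in multiciliated cells.

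Mir449a held most of the family's counts in both heart pools. It had 12377 counts in replicate 1 and 5921 in replicate 2, or 1912 and 1014 CPM. The Wilson 95% intervals, 1879 to 1946 CPM and 988 to 1040 CPM, did not overlap, and replicate 1 was the higher. The mean was 1463 ± 635 CPM (SD, n = 2), rank 69 of the 1973 listed genes. Mir34c had 2054 and 1748 counts, or 317 and 299 CPM (308 ± 12.8 CPM, SD, n = 2). Mir34a had 1610 and 1682 counts, or 249 and 288 CPM (268 ± 27.7 CPM, SD, n = 2). These 3 genes stood above the median of 108 CPM over the 365 genes with at least 10 counts in each library.

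The remaining members had few counts. Mir34b had 95 and 55 counts, or 14.7 and 9.42 CPM (12.0 ± 3.72 CPM, SD, n = 2). Mir449c had 17 and 20 counts, or 2.63 and 3.42 CPM (3.02 ± 0.56 CPM, SD, n = 2). Mir449b had 15 counts in replicate 1 and 2 in replicate 2, or 2.32 and 0.342 CPM. Its level in replicate 2 lay below the 0.514 CPM that a count of 0 allows there. The Wilson 95% intervals were 1.40 to 3.82 CPM and 0.0939 to 1.25 CPM. Mir449b therefore missed the minimum of 10 counts in each library, and 5 of the 6 members passed it.

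**Figure D1:**
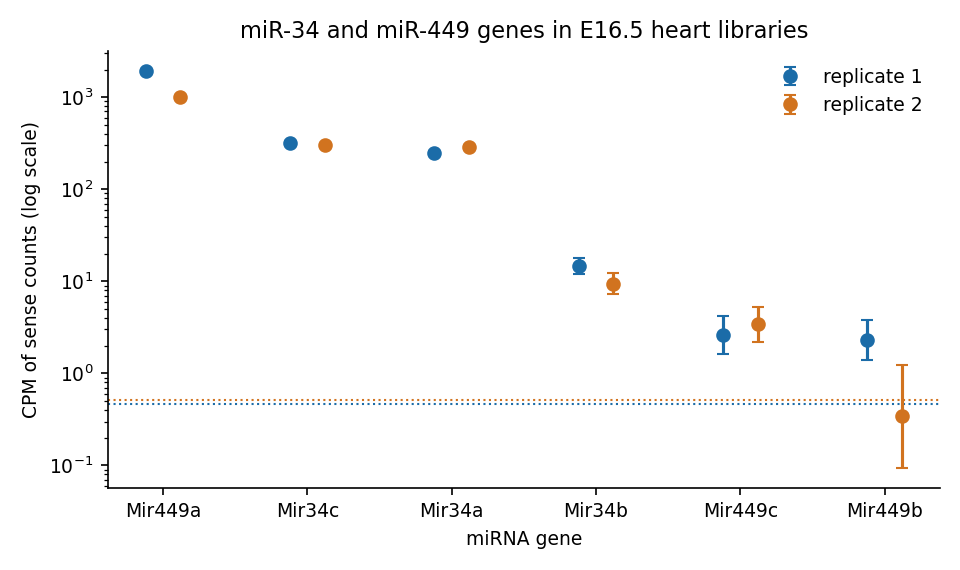
CPM of each family gene (log axis) in replicate 1 and replicate 2, with Wilson 95% intervals of counting error as bars and the level that a count of 0 allows as dotted lines. Mir449a stands highest at 1912 and 1014 CPM, Mir34c and Mir34a lie between 249 and 317 CPM, and Mir34b, Mir449c and Mir449b lie at or below 14.7 CPM.

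The order of the members was the same in both libraries: Mir449a, Mir34c, Mir34a, Mir34b, Mir449c, Mir449b. Mir449a was 6.03-fold above Mir34c in replicate 1 and 3.39-fold in replicate 2, with exact 95% intervals of 5.75 to 6.32 and 3.21 to 3.58. Mir34c exceeded Mir34a 1.28-fold in replicate 1 (exact 95% interval 1.19 to 1.36) and 1.04-fold in replicate 2 (0.971 to 1.11). The order of Mir34c and Mir34a was thus not detectable in replicate 2, where the interval included equal counts. Mir34a was 16.9-fold and 30.6-fold above Mir34b. Mir34b was 5.59-fold and 2.75-fold above Mir449c. Mir449c and Mir449b differed by less than counting error in replicate 1 (1.13-fold, exact 95% interval 0.532 to 2.44), and replicate 2 held only 2 counts of Mir449b. These ratios compare counts per gene and are not divided by length. The mature strands printed above have 21 to 23 bases, and read lengths were not given. Whether each strand is read with equal efficiency was not tested.

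Together the 6 genes held 0.250% of sense counts in replicate 1 (Wilson 95% interval 0.246% to 0.254%) and 0.161% in replicate 2 (0.158% to 0.165%). The mean was 0.206% ± 0.062 (SD, n = 2). The miR-34 genes held 0.0581% and 0.0597% of counts, so their summed level was nearly level between pools. The miR-449 genes held 0.192% and 0.102%, and the difference in the family's share lay in these. Within the family Mir449a made up 76.6% of counts in replicate 1 and 62.8% in replicate 2. Mir34c made up 12.7% and 18.5%, and Mir34a 9.96% and 17.8%. Without Mir449a, the other 5 members summed to 586 and 600.3 CPM.

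The miR-449 genes differed widely in level although they lie in 1 intron. Mir449a had 728 times the counts of Mir449c in replicate 1 and 296 times in replicate 2. On the log2 scale the ratio averaged 8.86 ± 0.92 (SD, n = 2). Mir449a exceeded Mir449b 825-fold in replicate 1 (exact 95% interval 500.1 to 1475), and in replicate 2 the 2 counts of Mir449b gave an interval of 819 to 24451. Mir449c lies 872 bases and Mir449a 2423 bases from the annotated start of Cdc20b. The hairpins of the highest and of the lowest miR-449 gene past the count minimum are printed 5′ to 3′ (GRCm38.p6, plus strand, chr13:113037534-113037624 and chr13:113035983-113036091), with the mature strands in capitals, since counts fall to the whole hairpin.
Mir449a: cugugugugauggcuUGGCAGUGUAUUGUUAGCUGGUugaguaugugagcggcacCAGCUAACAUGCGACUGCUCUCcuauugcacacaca
Mir449c: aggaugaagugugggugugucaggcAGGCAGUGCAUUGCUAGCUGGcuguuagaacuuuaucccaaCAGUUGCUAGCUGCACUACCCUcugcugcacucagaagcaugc
The hairpins have 18 and 20 bases between the mature strands. Their longest common stretch was 7 bases, and over all 15 pairs of members it was at most 11 bases. No member shared a 20-base sequence with any other of the 1894 listed hairpins that had a sequence. Whether reads of these genes were lost as matching several places in the genome was not tested.

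**Figure D2:**
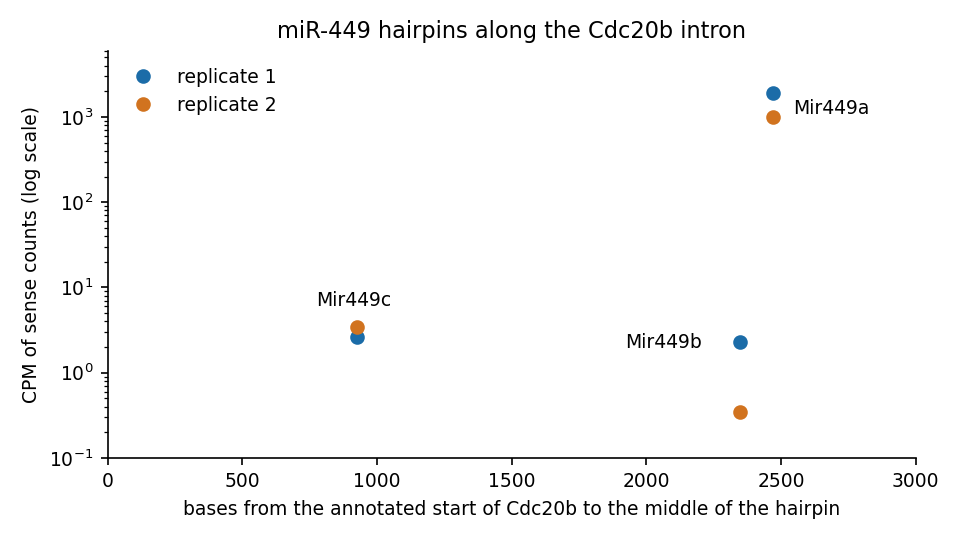
CPM (log axis) of the miR-449 genes in each library against the distance of the hairpin's middle from the annotated start of Cdc20b, in bases. Mir449a stands at 1912 and 1014 CPM, while Mir449b, 35 bases before it, and Mir449c lie at or below 3.42 CPM.

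The other pair of clustered genes was also unequal. Mir34c exceeded its neighbour Mir34b 21.6-fold in replicate 1 (exact 95% interval 17.6 to 26.8) and 31.8-fold in replicate 2 (24.3 to 42.4). The log2 ratio averaged 4.71 ± 0.39 (SD, n = 2). Mir34a, on its own chromosome, stood near Mir34c and far above Mir34b in both libraries. On the opposite strand, where Btg4 lies for Mir34b and Mir34c, the 6 genes had 0 counts in replicate 1 and 1 in replicate 2, the latter at Mir34b.

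The pools were then compared. Mir449a was lower in replicate 2 by 1.85-fold (log2 ratio -0.89, exact 95% interval -0.94 to -0.85). Mir34b was lower by 1.53-fold (log2 ratio -0.61, interval -1.12 to -0.12), and Mir34a was higher by 1.18-fold (log2 ratio 0.24, interval 0.14 to 0.34). Mir34c (log2 ratio -0.06, interval -0.15 to 0.03) and Mir449c (0.40, interval -0.60 to 1.43) did not pass the test. The counts were compared by an exact binomial test, two-sided, with library sizes scaled by TMM and Benjamini-Hochberg adjustment over 365 genes. By it the adjusted p was at most 4.56e-299 for Mir449a, where p-values below 1e-300 were written as 1e-300. The adjusted p was 9.44e-06 for Mir34a, 0.0261 for Mir34b, 0.323 for Mir34c and 0.545 for Mir449c.

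By this test 3 of the 5 members past the count minimum differed between libraries, 2 lower and 1 higher in replicate 2. Of all 365 genes 46.3% passed, 20.3% lower and 26.0% higher in replicate 2, so the members' share was near that of all genes. With a minimum of 2-fold no member was called, and 3.29% of all genes were. The test compares these 2 libraries and rests on counting error alone. With the spread of all genes between the libraries as dispersion (edgeR exact test, biological coefficient of variation 17.6%), none of the members passed, with adjusted p = 0.531 for Mir449a and 1 for Mir34a and Mir34b. That test called 5 genes in all. Its dispersion was estimated from these same 2 libraries, so it holds the differences under test. A member that did not pass is therefore not shown to be equal between them.

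Mir449a had the largest absolute log2 ratio of the 82 listed genes with a mean of at least 1000 CPM. Next among those that were lower in replicate 2 were Mir10a, a gene of the Hoxb cluster, with a log2 ratio of -0.82, and the epithelial Mir200c (-0.49). Over all 365 genes Mir449a ranked 23rd by absolute log2 ratio, and the median absolute log2 ratio was 0.21. Mir34a ranked 168th and Mir34c 296th, so both lay among genes of ordinary or small difference.

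**Figure D3:**
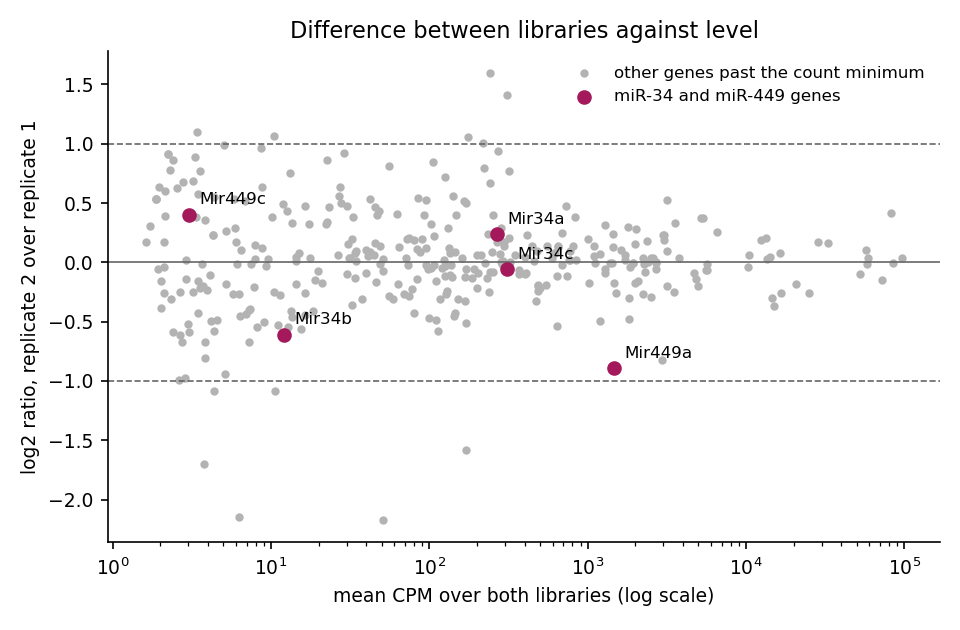
Log2 ratio of replicate 2 over replicate 1 against mean CPM (log axis) for the 365 genes with at least 10 counts in each library, with the 5 family genes in colour and dashed lines at a 2-fold difference. Mir449a, at -0.89, lies below the other genes of 1000 CPM or more.

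Ratios between members do not depend on how the libraries are scaled. Of the 10 pairs among the 5 members past the count minimum, 6 had a ratio that differed between libraries by a two-sided Fisher exact test with Benjamini-Hochberg adjustment over the pairs. In replicate 2 Mir449a fell to 0.458 of its ratio against Mir34a (adjusted p = 1.02e-90) and to 0.562 of its ratio against Mir34c (adjusted p = 1.69e-55). Against its intron neighbour Mir449c the ratio fell to 0.407 (adjusted p = 0.0150), and against Mir34b the change was not detectable (0.826, adjusted p = 0.320). The ratio of Mir34c over Mir34a fell to 0.815 (adjusted p = 6.00e-05). Mir34a rose against Mir34b 1.80-fold (adjusted p = 0.00147) and Mir34c against Mir34b 1.47-fold (adjusted p = 0.0491). These tests too rest on counting error alone, and no ratio was tested with dispersion. The 10 pairs share their 5 genes and are not independent, and the share passing among pairs of all genes was not computed. Of all single genes 46.3% passed the binomial test.

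Markers of other cell types were read in the same libraries. Heart muscle was marked by Mir208a, Mir208b and Mir499, which lie in myosin genes and summed to 67703 and 67120 CPM. The endothelial Mir126a stood at 85876 and 84222 CPM. All 11 genes of the epithelial list passed the count minimum, and none was at 0. They summed to 7888 CPM in replicate 1 and 6583 CPM in replicate 2, led by Mir429 (1819 ± 443 CPM) and Mir200c (1188 ± 298 CPM; SD, n = 2 for both). By the binomial test replicate 2 was lower for 8 of the 11 and higher for 2, and 1 missed the threshold, where 20.3% of all genes were lower and 26.0% higher. With dispersion (edgeR exact test) none of the 11 passed. The list's median log2 ratio was -0.19 against 0.02 over all 365 genes.

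The 5 miR-200 genes of that list are epithelial miRNAs in 2 clusters, so they are not independent of each other. All 5 were 1.39-fold to 1.45-fold lower in replicate 2. Mir449a was thus lower in the same library as they were, by 1.85-fold. Mir205, an epithelial miRNA of skin, and Mir182 were higher in replicate 2 (log2 ratios of 0.48 and 0.14), and Mir375 (0.02) did not pass. The part of epithelial cells in the level of Mir449a was not tested. In pooled tissue, fewer cells of a type and less RNA per cell cannot be told apart.

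**Figure D4:**
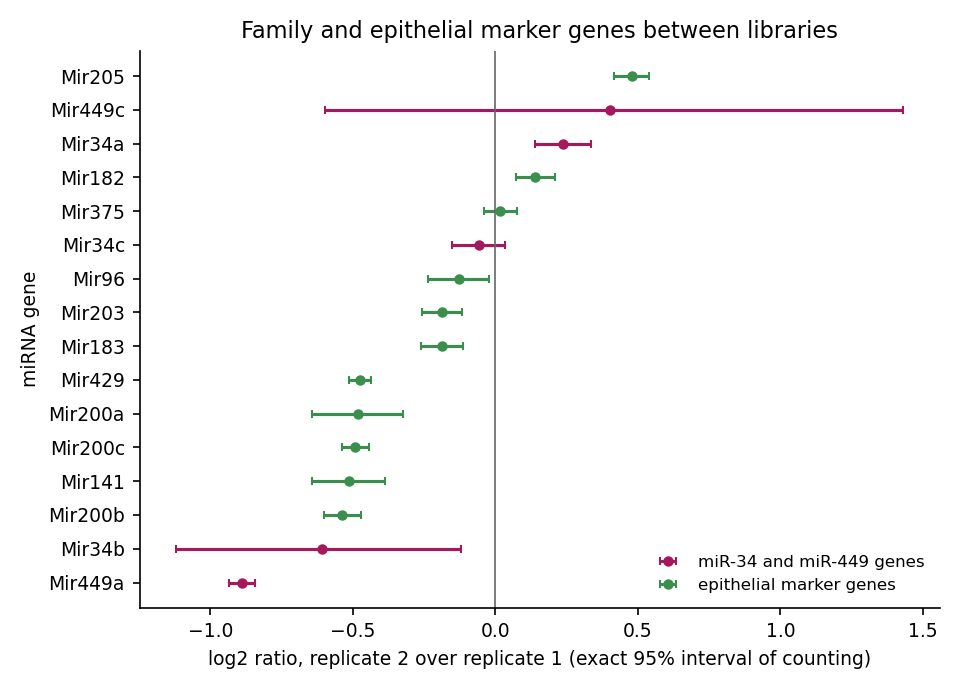
Log2 ratio of replicate 2 over replicate 1 for the 5 family genes past the count minimum and the 11 epithelial marker genes, with exact 95% intervals of counting error. Mir449a lies lowest at -0.89, the 5 miR-200 genes (Mir200a, Mir200b, Mir200c, Mir141 and Mir429) lie near -0.5, and Mir34b lies at -0.61. Mir34c (-0.06) has an interval that holds 0, Mir34a lies at 0.24 and Mir449c at 0.40 with a wide interval.

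Neural markers were mixed in level. Of 8 listed neural genes 3 passed the count minimum. By the binomial test Mir128-1 and Mir128-2 were higher and Mir153 was lower in replicate 2 (none with dispersion). Of all 365 genes, 26.0% were higher and 20.3% lower by that test. Mir153, with a log2 ratio of -1.08, was the only neural gene called with the 2-fold minimum. Mir9-2 and Mir124a-3 were at 0 in both libraries, and the list summed to 281 and 434 CPM. Mir128-1 stood at 240.4 ± 74.5 CPM and Mir128-2 at 105 ± 41.2 CPM (SD, n = 2).

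Other miRNAs linked to p53 were read beside the miR-34 genes. Of 10 such genes, Mir605 was not among the listed genes and the other 9 passed the count minimum. By the binomial test with Benjamini-Hochberg adjustment replicate 2 was higher for 4 of the 9 and lower for 0, while 5 missed the threshold. Of all genes 46.3% passed that test, 26.0% higher and 20.3% lower in replicate 2. The share of the list passing in either direction was thus near that of all genes. With dispersion none of the 9 passed. The median log2 ratio was 0.03. None reached 2-fold. Mir107, hosted by a pantothenate kinase gene, stood at 3012 ± 303 CPM with a log2 ratio of 0.23, and Mir16-1, which restrains the cell cycle, at 1452 ± 149.7 CPM with 0.24. Mir145a, a smooth muscle miRNA, stood at 1288 ± 182 CPM with 0.31, and its neighbour Mir143 at 96423 ± 348 CPM with 0.03. Of those that did not pass, Mir15a stood at 2254 ± 40.02 CPM and Mir215 at 456 ± 2.49 CPM. Mir192 stood at 63.5 ± 6.53 CPM, Mir194-1 at 48.4 ± 0.963 CPM and Mir194-2 at 34.6 ± 1.24 CPM (SD, n = 2 for all). Mir34a, at 268 CPM and a log2 ratio of 0.24, lay between Mir215 and Mir192 in level.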

How the data were processed

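Small RNA from E16.5 mouse hearts was measured by microRNA-seq in 2 libraries. For each miRNA gene the authors deposited raw, unnormalised read counts, made on build mm10 with annotation M4 according to the accompanying file list. The aligner, the counter and trimming are not given in the sources used here. A table gives reads per gene for both strands together and for each strand apart, and the third column, with the larger strand total, was read as sense. Lines for unmapped reads (22.4% and 17.2% of all reads), reads matching several places (29.5% and 31.9%), reads outside genes (2.99% and 2.66%) and ambiguous reads (0) name no gene and were left out.

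Identifiers were matched without their version to GENCODE M21 of the same build (1894 of 1973 matched, all 6 members with the same version). CPM is per 1000000 sense counts. All samples form 1 group, so conditions were not contrasted. The libraries were compared with a two-sided exact binomial test given TMM-scaled library sizes (edgeR 4.0.16, R 4.3.3), over genes with 10 or more counts in each library, with Benjamini-Hochberg adjustment. Log2 ratios add 0.5 to each count. The test was tried on simulated Poisson counts, which hold counting error alone, as the test assumes. How it behaves with spread between pools was not simulated. Ratios of members carry exact Clopper-Pearson 95% intervals and Fisher exact tests (SciPy 1.17.1, Python 3.11.15). Intervals and the limit that a count of 0 allows (3 counts) cover counting error only, since PCR copies are not independent molecules. The labels call the libraries biological replicates.

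The named genes were the members, the p53-linked genes past the count minimum, the 2 highest of each marker list, and genes next to a member in level or log2 ratio. Genes outside this rule, among them Mir205, Mir182, Mir375, Mir153 and the neural genes at 0, were named after their values were seen. Members, lists and tests were chosen with earlier results of these data known. Alternatives were other scalings (total count, DESeq2 1.42.0), other count and fold minimums, an edgeR exact test with dispersion, counts of either strand, other denominators and leaving out each replicate.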

Additional observations from a re-analysis of the deposited data

How the results depend on the processing

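The family's share was 0.206% of sense counts and 0.0897% of all reads. Of all reads the miR-34 genes held 0.0259% and the miR-449 genes 0.0639%. The miR-34 share was 0.0554% with counts of either strand and 0.0651% without the most abundant gene. Leaving out either replicate moved no level, share or ratio by as much as 1 SD, which with 2 libraries is so by construction, but Mir449a exceeded Mir34c 6.03-fold in replicate 1 alone and 3.39-fold in replicate 2 alone. Total-count scaling, DESeq2 size factors, 5 or 50 counts as the minimum, no count filter and counts of either strand kept the direction and the side of the threshold for the 5 members past the count minimum, except that Mir449c was not tested with 50 counts. The difference of Mir449b was given under no setting. The edgeR exact test with dispersion kept the directions (log2 ratios of -0.89 for Mir449a, -0.61 for Mir34b and 0.24 for Mir34a) and none of the 3 passed, as that test adds the spread of all genes. Of all genes, 12 passed at 2-fold, 21 without a count filter, 6 with 50 counts, 29 at 1.5-fold, 169 with no minimum fold and 5 with dispersion (5 also with no minimum fold). No paired analysis was possible because the labels define a single group. Depth limits Mir449b, Mir449c and Mir34b.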

Other observations

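Genes whose values over the 2 libraries were most like a member's were taken by the nearest log2 ratio among genes within 4-fold of its level. For Mir449a these were Mir10a (-0.82, 2938 CPM), Mir200b (-0.54, 640 CPM) and Mir200c (-0.49, 1188 CPM) among 92 genes. Their distances from the log2 ratio of Mir449a were 0.067, 0.353 and 0.399, so only Mir10a lay near it. For Mir34a they were Mir16-2, Mir199b and Mir467c among 124 genes, all within 0.01004 of its log2 ratio. For Mir34c they were Mir540, Mir3071 and Mir7j among 123 genes. For Mir34b they were Mir1934, Mir5626 and Mir666, and for Mir449c Mir488, Mir190b and Mir1927. By mean CPM the genes next to Mir449a were Mir10b (1471 CPM) and Mir16-1 (1452 CPM), those next to Mir34c were Mir106a (309 CPM) and Mir27a (296 CPM), and those next to Mir34a were Mir30b (269 CPM) and Mir874 (267 CPM). Mir34b lay between Mir378b (12.6 CPM) and Mir1249 (11.95 CPM), and Mir449c between Mir1934 (3.05 CPM) and Mir29b-1 (2.98 CPM). With 2 libraries, likeness in this sense is a description and carries no test.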
